A study of Homo sapiens with 2 samples.

Results

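The nuclear-encoded subunits and named assembly factors of the mitochondrial respiratory chain and ATP synthase were compared between A172 cells and a temozolomide-resistant clone of them. Members were taken by gene name from the deposited table: names starting with NDUF, ATP5 or UQCR, the 4 genes SDHA to SDHD, and COX followed by a digit. Pseudogenes (names ending in P and digits) and antisense genes were left out. This gave 97 genes of 15603 listed: 37 subunits of complex I, 4 of complex II, 8 of complex III, 13 of complex IV, 15 of ATP synthase, and 20 assembly or accessory factors. NDUFA4 was placed with complex IV, of which it is now held to be a subunit. COX7A2L (a supercomplex factor), ATP5SL and ATP5S were placed with the factors.

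A172 is an established human glioblastoma cell line, and temozolomide (TMZ) is the alkylating drug used against this tumour. The parental group held 1 library, labelled "without TMZ". The resistant group held 1 library of 1 clone that had been selected by the drug, A172-r#6, labelled "with TMZ" and called the clone below. Clone, selection and drug exposure therefore cannot be told apart, and no difference below has a replicate check. In bulk RNA of a culture, fewer cells of a kind and less RNA per cell cannot be told apart either.

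The respiratory chain carries electrons from NADH and succinate to oxygen through complexes I, III and IV, with complex II as a second entry, and pumps protons across the inner mitochondrial membrane. ATP synthase lets the protons flow back and makes ATP. Most subunits are nuclear genes, imported after translation, while a core of each proton-translocating complex is made from mitochondrial DNA, and assembly factors insert cofactors or hold intermediates without staying in the finished complex. Levels are given as FPKM (fragments per kilobase of transcript, scaled by the authors for library size), which is per length, so that genes can be set side by side within a library.

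Over all listed genes the FPKM came to 299594 in parental cells and 323932 in the clone. Sequencing depth is unknown. A fold below is log2 of (resistant FPKM + 1) over (parental FPKM + 1), called the log2 fold, and the added 1 understates the change of low genes. A filter of at least 1 FPKM in 1 of the libraries left 13937 genes, among them all 97 members, none of which was listed at 0. Of 7 astrocyte and glioma markers, 4 passed it: VIM had 632 FPKM in parental cells and 804 in the clone, CD44 had 83.1 and 161, NES 33.7 and 5.08, and SOX2 2.23 and 0.253. Markers of other cell types were mostly absent from the table (none of 3 for oligodendrocytes was listed) or low, with PTPRC at 1.83 and 0.485 FPKM, PECAM1 at 0.921 and 0.0225, CDH5 at 0.583 and 0.141, CD68 at 0.690 and 0.434 and EPCAM at 0.797 and 0.669. Exceptions were SYT1 (13.3 and 16.1), DCN (6.03 and 5.96) and COL1A1 (33.5 and 6.53).

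Members lay mostly near equality between the libraries. Of the 9 assembly factors of complex I that the naming rule took, 7 had a fold above 0 (77.8%, beside 53.3% of all genes). Of the 77 subunits 47 had a fold below 0 (61.0%, beside 46.7% of all genes). At least 2-fold higher in the resistant library were 2 of 97 members, COX6B2 and NDUFAF2, where 4.59% of all genes passing the filter were. At least 2-fold lower was 1 member, NDUFB4, where 3.82% of all genes were. At a lower bar of 1.5-fold, 5 members were higher (5.15%, beside 14.5% of all genes) and 14 were lower (14.4%, beside 12.0% of all genes). The share of lower members was thus near the background, and the share of higher members was under it. Within 1.2-fold of equality lay 49 members, or 50.5%, beside 39.6% of all genes. The median log2 fold of the members was -0.11, beside 0.04 for all genes, and 55 of 97 members (56.7%) had a fold below 0, beside 46.7% of all genes.

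All 14 members at least 1.5-fold lower were subunits, and 4 of the 5 that were higher were assembly factors of complex I. The median log2 fold was -0.12 over the 77 subunits and 0.06 over the 20 factors, and the latter turned to -0.01 when the libraries were scaled to a common median ratio or upper quartile. The subunits' summed FPKM was 3192 in parental cells and 2817 in the clone, a ratio of 0.883, while the factors summed to 231 and 248. The difference between subunits and factors was not tested, since each group held 1 library.

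**Figure D1:**
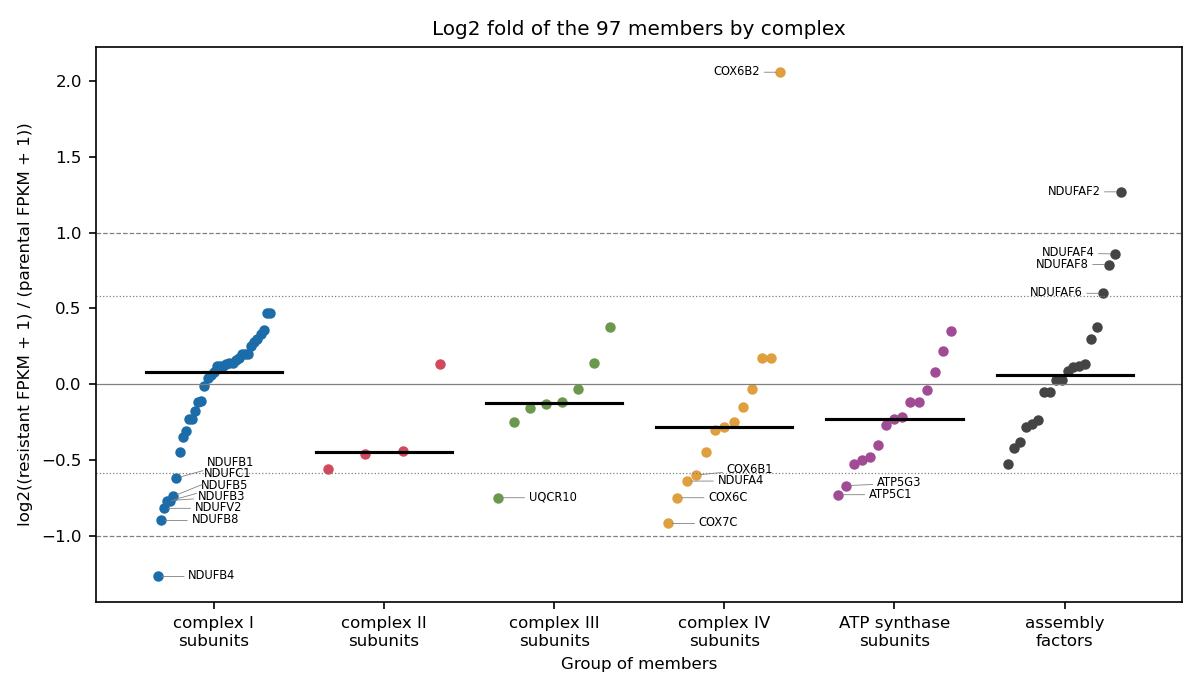
Each point is 1 of the 97 members, placed by complex on the horizontal axis and by log2((resistant FPKM + 1)/(parental FPKM + 1)) on the vertical axis. Black bars are group medians, dotted lines mark 1.5-fold and dashed lines 2-fold. The 14 named points below the lower dotted line are all subunits, and 4 of the 5 above the upper one are NDUFAF factors.

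Upstream sequence is shown for 2 members that lay on opposite sides and whose 150 bases before the annotated start hold no exon of another gene. NDUFB4 had the lowest fold of all members, and NDUFAF4 was among the assembly factors that were higher. The stretches are GRCh38.p14 sequence from RefSeq, 5′ to 3′ on the strand of the gene. Capitals mark matches, on either strand, to GCGCNTGCG (the core bound by NRF1, a regulator of respiratory genes) or to CCGGAAG (the core bound by ETS factors such as GABPA). Such a stretch was also free of exons for COX6B1, COX7C, NDUFB8, NDUFC1, NDUFV2 and UQCR10, all at least 1.5-fold lower. None of these held either core in the stretch, so the 2 printed are those with a match.
NDUFB4, chr3:120596159-120596308, plus strand: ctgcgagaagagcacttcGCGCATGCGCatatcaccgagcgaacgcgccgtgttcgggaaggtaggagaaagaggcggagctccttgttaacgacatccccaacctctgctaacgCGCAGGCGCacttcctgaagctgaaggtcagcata
NDUFAF4, chr6:96897892-96898041, minus strand: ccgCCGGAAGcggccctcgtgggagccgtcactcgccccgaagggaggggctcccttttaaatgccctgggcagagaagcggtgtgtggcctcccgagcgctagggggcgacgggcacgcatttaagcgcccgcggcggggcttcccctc

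Over all members, RefSeq windows of 250 bases before to 50 after a start were matched for 81 of 97 by current symbol. The NRF1 core was found in 27 of these (33.3%), beside 17.7% of the 10187 genes passing the filter that had a window and 9.01% of all 27305 genes with one. The ETS core was found in 26 (32.1%, beside 22.8% and 12.2%), and AAGATGGCG, the core bound by YY1, in 11 (13.6%, beside 4.85% and 2.14%). Per window, the NRF1 core was in 28.2% of the 103 windows of members and in 7.47% of all 35116. Both strands were searched, and the NRF1 core can match itself in overlapping positions, counted once per gene. The median log2 fold of members was -0.12 with the NRF1 core and 0.00 without, 0.01 with the ETS core and -0.12 without, and 0.04 with the YY1 core and -0.11 without. Of the 10 members with a window that were at least 1.5-fold lower, 4 held the NRF1 core (ATP5C1, NDUFB4, NDUFC1 and UQCR10). Of the 4 that were higher none did, where the share over all members with a window was 33.3%. The ETS core was in 1 of the 10 lower and 2 of the 4 higher members, and the YY1 core in 1 of each. These counts are small, and a difference by direction was not tested. A match is a stretch of letters and no evidence of binding.

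Complex I takes electrons from NADH in a hydrophilic arm that reaches into the matrix and pumps protons in a membrane arm. All 37 of its nuclear subunits by this naming were measured, with a median level of 23.1 FPKM in parental cells and 22.4 in the clone and a median log2 fold of 0.08, or 0.00 under either scaling. None was at least 1.5-fold higher (beside 14.5% of all genes), and 7 were lower (beside 12.0%), 6 of them accessory subunits of the membrane arm.

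The 7 core subunits of the hydrophilic arm, which hold the flavin and the iron-sulfur clusters, had a median log2 fold of 0.12. NDUFV1, the flavoprotein that binds NADH, had 42.8 FPKM in parental cells and 49.4 in the clone. NDUFS1, which carries iron-sulfur clusters beside it, had 32.4 and 34.0. NDUFS8, another iron-sulfur subunit and the most abundant of the core set, had 66.8 and 74.7 FPKM. NDUFS7, an iron-sulfur subunit at the ubiquinone site, had 23.1 and 25.6 FPKM, and NDUFS3 had 49.6 and 53.8. These 5 lay between log2 folds of 0.06 and 0.20.

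NDUFV2 stood apart from this set. This iron-sulfur subunit, the partner of NDUFV1, had 46.3 FPKM in parental cells and 25.8 in the clone (log2 fold -0.82). The ratio of the levels of these partners thus differed between the libraries, with NDUFV2 above NDUFV1 in the parental and below it in the resistant one. NDUFV2 shares 771 of its 2711 annotated exon bases with a noncoding gene on the same strand, so part of its reads may belong to that gene.

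Accessory subunits of the hydrophilic arm numbered 9, of which 6 were above 0 (66.7%, beside 53.3% of all genes), with a median of 0.25. NDUFS6, which binds zinc, had 1.67 FPKM in parental cells and 2.70 in the clone (log2 fold 0.47). NDUFA9, near the ubiquinone site, had 6.15 and 8.93 (0.47), and it shares exons with other listed genes on its strand. NDUFA12 had 7.39 and 9.81 FPKM (0.36), NDUFV3 had 10.9 and 13.6 (0.30) and NDUFS4, whose loss is a known cause of Leigh syndrome, had 51.8 and 61.8 (0.25). The subunits NDUFA2, NDUFA5 and NDUFA6 were slightly lower, between -0.23 and -0.18. None of the 9 reached 1.5-fold with the added 1, and NDUFS6 passed it with a pseudocount of 0.1 (0.66) or none (0.69).

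The 20 accessory subunits of the membrane arm were divided, with 9 above 0 and 11 below it (55.0%, beside 46.7% of all genes). Their median was -0.06, with a wider middle range than both sets of the hydrophilic arm (interquartile range 0.80 on the log2 scale). NDUFB4 had 21.1 FPKM in parental cells and 8.21 in the clone, a log2 fold of -1.27 and a plain ratio of 2.58 in favour of the parental one. By level it ranked 51 of the 97 members in parental cells and 83 in the clone. NDUFB4 (ENSG00000065518) lies on chromosome 3 from 120596309 to 120602500 on the plus strand (GRCh38), shares no exon with a listed gene, and has 12 annotated pseudogenes of its name, with which it may share reads. Its q was 0.162 in the authors' deposited table. Its 3 nearest genes passing the filter on each side had log2 folds from -0.68 to 0.51, in both directions.

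NDUFB8 had 29.7 FPKM in parental cells and 15.4 in the clone (log2 fold -0.90), and it shares 675 of its 1999 exon bases with a listed gene on the same strand. NDUFB5, the most abundant subunit of complex I in the parental library, had 80.4 and 46.6 FPKM (-0.77) and ranked 9 and 22 of the members. NDUFB3 had 25.2 and 14.3 FPKM (-0.77), and NDUFB1 had 13.2 and 8.23 (-0.62). NDUFC1, a small subunit, had 9.85 and 5.49 FPKM (-0.74). It shares 360 of its 1941 exon bases with MGARP, a coding gene on the same strand that is not listed. These NDUFB genes and NDUFC1 encode small proteins of the membrane arm.

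Of the other 6 NDUFB subunits 4 lay above 0. NDUFB10 had 18.4 FPKM in parental cells and 23.3 in the clone (log2 fold 0.33), NDUFB2 had 19.3 and 22.4 (0.20), NDUFB7 had 43.3 and 47.8 (0.14) and NDUFB11 had 20.0 and 21.7 (0.12). NDUFB9 (22.1 and 15.9 FPKM) and NDUFB6 (10.5 and 8.29) were lower by less than 1.5-fold. Of the 11 NDUFB genes 4 were above 0 and 7 below it (63.6%, beside 46.7% of all genes). Past 1.5-fold lower were 5, beside 12.0% of all genes. The FPKM of the 11 summed to 303 and 232, a ratio of 0.766. NDUFC2, which is paired with NDUFC1 in the membrane arm, had 37.3 and 42.9 FPKM, in the opposite direction to its partner.

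The NDUFA subunits of the membrane arm lay close to equality. NDUFA13, also known as GRIM-19, had 62.0 FPKM in parental cells and 70.0 in the clone, NDUFA8 had 39.1 and 41.4, and NDUFA11 had 23.8 and 26.2. NDUFA10 had 18.3 and 22.4 FPKM and NDUFA3 16.8 and 16.7. NDUFA1, an X-linked subunit, was the second lowest subunit gene of complex I by level in the parental library, at 3.06 FPKM, and had 2.77 in the resistant one. NDUFS5 had 25.7 and 19.9 FPKM (-0.35). NDUFAB1, the mitochondrial acyl carrier protein present in both arms, had 35.7 and 39.0 FPKM.

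**Figure D2:**
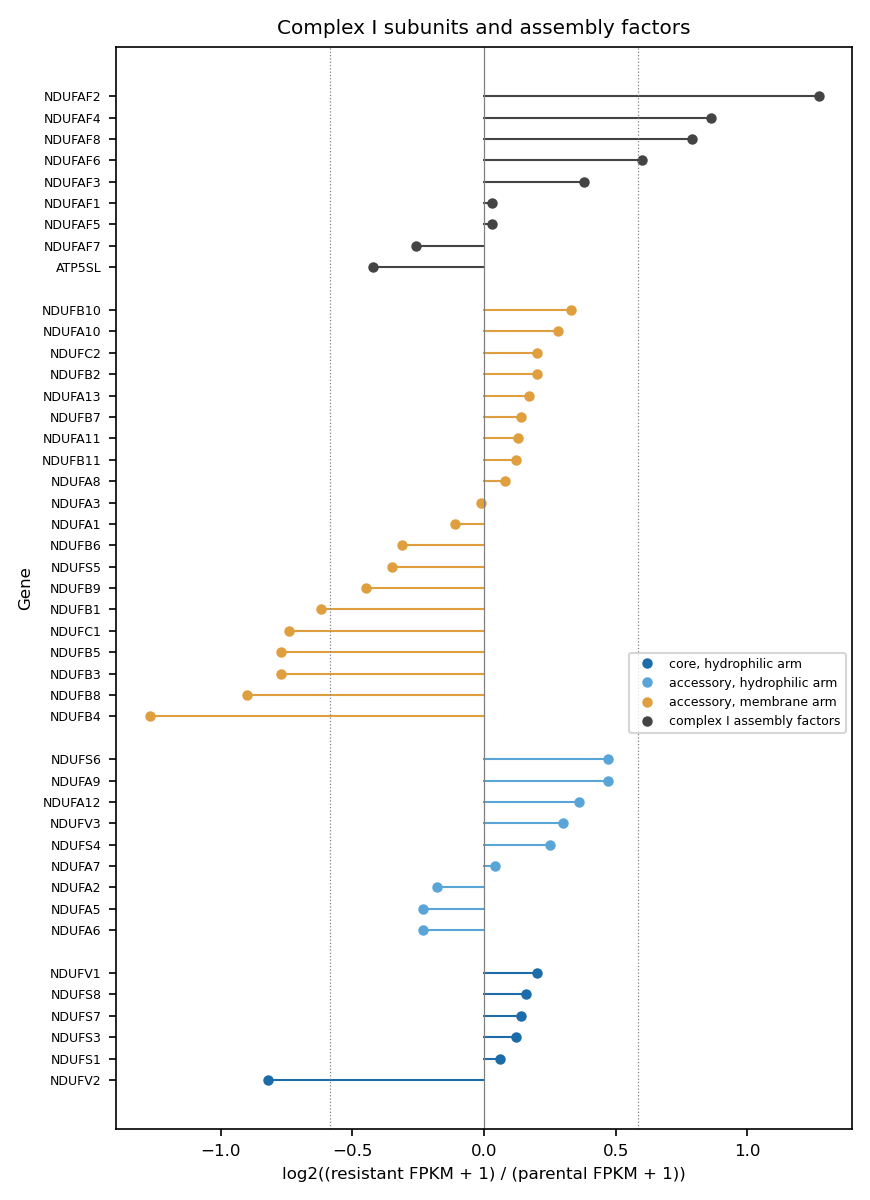
Each row is a subunit gene of complex I (not all are drawn) or an assembly factor of it, and the horizontal axis is log2((resistant FPKM + 1)/(parental FPKM + 1)), with dotted lines at 1.5-fold. Orange accessory subunits of the membrane arm reach down to -1.27 for NDUFB4, while NDUFAF2, in dark grey, reaches 1.27.

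Assembly factors of complex I held 4 of the 5 members that were at least 1.5-fold higher. The 8 NDUFAF genes had a median log2 fold of 0.49, and 7 of 8 were above 0 (87.5%, beside 53.3% of all genes). Their summed FPKM was 53.3 in parental cells and 77.4 in the clone, a ratio of 1.45, while the 37 subunits they help to assemble summed to 1030.4 and 982. In the alternative settings that kept all 8, the median of the NDUFAF genes lay between 0.42 and 0.57. It was 0.38 with a filter of 5 FPKM, which left out NDUFAF2. Without members on a merged locus shared with another listed gene it was 0.79, over fewer NDUFAF genes. With ATP5SL, the 9 complex I factors had a median of 0.38 in the main setting.

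NDUFAF2, a chaperone bound to a late intermediate of the complex, had 1.40 FPKM in parental cells and 4.77 in the clone (log2 fold 1.27, plain ratio 3.41). Both levels are low, and q was 0.0991 in the authors' deposited table. NDUFAF2 (ENSG00000164182) lies on chromosome 5 from 60945129 to 61153037 on the plus strand (GRCh38), with no annotated pseudogene of its name. All 6 of its nearest genes passing the filter, 3 on each side, were also higher, with log2 folds from 0.43 for ERCC8, which starts next to it on the other strand, to 1.55. The fold of NDUFAF2 was thus within the range of its neighbours, and the part of its position in the difference was not tested.

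NDUFAF4, which acts with NDUFAF3 early in assembly, had 5.52 FPKM in parental cells and 10.8 in the clone (log2 fold 0.86), and NDUFAF3 had 8.43 and 11.2 (0.38). NDUFAF8 had 14.4 and 25.6 FPKM (0.79), while its partner NDUFAF5, which hydroxylates NDUFS7, had 5.65 and 5.78 (0.03). NDUFAF6 had 3.57 and 5.91 FPKM (0.60), just past the 1.5-fold bar, and dropped under it with either scaling. NDUFAF1, part of the complex that assembles the membrane arm, was level at 8.24 and 8.42 FPKM. NDUFAF7, a methyltransferase, was the NDUFAF gene with a fold below 0, at 6.10 and 4.91 FPKM (-0.26). ATP5SL, an assembly factor of complex I despite its name (DMAC2 in current naming), had 20.1 and 14.7 FPKM (-0.42). Partners in a known step thus had unequal folds, a difference that was not tested.

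Complex II, succinate dehydrogenase, links the tricarboxylic acid cycle to the chain and has no subunit made in mitochondria. Of its 4 subunits 3 had folds below 0, none past 1.5-fold, with a median log2 fold of -0.45. SDHA, the flavoprotein that oxidises succinate, had 34.4 FPKM in parental cells and 23.0 in the clone (-0.56), and it passed 1.5-fold lower under either scaling (-0.64) and with length centring (-0.61). The membrane anchors SDHC and SDHD had 75.3 and 54.3 FPKM (-0.46) and 32.9 and 24.0 (-0.44). The iron-sulfur subunit SDHB had 20.0 and 22.0 (0.13), so that SDHA, SDHC and SDHD lay closer to SDHB in the resistant library. SDHA, SDHC and SDHD have annotated pseudogenes that may share their reads, and SDHB has none.

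Complex III passes electrons from ubiquinol to cytochrome c. Its 8 subunits in the naming rule had a median log2 fold of -0.12, and 1 was at least 1.5-fold lower (beside 12.0% of all genes). That was UQCR10, a small membrane subunit, with 19.8 FPKM in parental cells and 11.4 in the clone (-0.75). UQCR11, the other small subunit next in name, had 17.4 and 23.0 FPKM (0.38), in the opposite direction, and shares exons with a listed gene on its strand. UQCRC1 and UQCRC2, the core proteins, had 80.8 and 79.2 and 30.5 and 33.7 FPKM. UQCRFS1, the Rieske iron-sulfur protein, had 32.1 and 29.5 FPKM, UQCRB had 17.3 and 15.4, UQCRH, the hinge protein, 16.0 and 14.5, and UQCRQ 47.6 and 39.8. All but UQCR10 and UQCR11 were within 1.2-fold of equality.

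Complex IV, cytochrome c oxidase, reduces oxygen. Of its 13 nuclear subunits 10 were below 0 (76.9%, beside 46.7% of all genes), with a median log2 fold of -0.28. At least 1.5-fold lower were 4 of the 13, beside 12.0% of all genes. COX7C, a small membrane subunit, had 93.8 FPKM in parental cells and 49.1 in the clone (log2 fold -0.92) and ranked 5 and 20 of the members. COX6C, also a small membrane subunit, had 74.9 and 44.1 FPKM (-0.75), and it has 17 annotated pseudogenes of its name. NDUFA4 had 49.8 and 31.5 FPKM (-0.64). COX6B1, which faces the intermembrane space and touches cytochrome c, had 50.8 and 33.2 FPKM (-0.60), just past the 1.5-fold bar.

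COX6B2 was the member with the largest difference. It encodes the form of the COX6B subunit known from testis, and had 0.427 FPKM in parental cells and 4.97 in the clone (log2 fold 2.06, plain ratio 11.6). Its q was 2.09e-05 in the authors' deposited table, where 1 of 97 members was under 0.05, beside 5.13% of all genes higher and 3.98% lower at that threshold. Such a q speaks of these libraries and not of resistance as a condition. The level in parental cells is low, so the ratio is sensitive to small errors in it. COX6B2 (ENSG00000160471) lies on chromosome 19 from 55349306 to 55354814 on the minus strand (GRCh38), and 1178 of its 3815 exon bases are shared with a second coding gene model on the same strand. Of the nearest genes passing the filter, the 3 on the side of lower coordinates had log2 folds from -0.70 to -0.06, and the 3 on the other side, IL11 among them, from 0.82 to 1.42.

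Isoforms were compared within their pairs because some subunits of complex IV exist in a common and a tissue-restricted form. COX6B1 made up 99.2% of the summed COX6B FPKM in parental cells and 87.0% in the clone, where the sums were 51.3 and 38.2. COX6B2 held the rest, 0.834% of it in parental cells. COX7B2, a related gene of COX7B, was present in both libraries, at 7.00 and 5.49 FPKM beside 22.6 and 18.8 for COX7B, or 23.7% and 22.6% of the pair. This share was nearly level between the libraries, while that of COX6B2 was not.

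The other subunits of complex IV were within 1.5-fold. COX4I1, which is needed for the assembly of the complex, had 74.3 FPKM in parental cells and 67.0 in the clone, and COX5A and COX5B had 19.8 and 16.1 and 41.1 and 40.1. COX6A1, the most abundant nuclear subunit of the complex, had 101 and 114 FPKM, and COX8A had 72.6 and 81.9. COX7A2 had 32.5 and 23.5 FPKM (-0.45), while COX7A2L, the related protein that joins complexes III and IV into supercomplexes, had 54.4 and 59.8. COX7A2L was above COX7A2 in both libraries.

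Of the 9 COX-named assembly factors of complex IV none reached 1.5-fold with the added 1. The median log2 fold was -0.05, and 6 were below 0 (66.7%, beside 46.7% of all genes). COX17, the copper chaperone, had 5.56 FPKM in parental cells and 3.55 in the clone (-0.53), which passed 1.5-fold without the added 1. COX11, which helps to place copper, had 15.6 and 17.0 FPKM, and COX10 and COX15, which make heme A, had 8.21 and 7.88 and 19.5 and 21.2. COX18 and COX20, which handle the mitochondrially made subunit 2, had 2.40 and 2.28 and 20.3 and 16.6 FPKM. COX14, which acts on the mitochondrially made subunit 1, had a log2 fold of -0.38, COX16 had 10.2 and 8.50, and COX19 6.40 and 6.89.

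ATP synthase had 12 of 15 subunits below 0 (80.0%, beside 46.7% of all genes), with a median log2 fold of -0.23. None was at least 1.5-fold higher, beside 14.5% of all genes, and 2 were lower, beside 12.0%. The complex held the most abundant member in both libraries, ATP5B, the catalytic beta subunit, with 245 FPKM in parental cells and 238 in the clone. The alpha subunit ATP5A1 had 145 and 104 FPKM (-0.48), so that the catalytic partners differed more in the resistant library. The gamma subunit ATP5C1, the rotating shaft, had 107 and 64.5 FPKM (-0.73) and ranked 3 and 11 of the members. Of the other head subunits, ATP5E had 35.6 and 24.3 FPKM (-0.53) and ATP5D 47.5 and 55.7 (0.22).

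The c ring is built from 1 mature protein made by ATP5G1, ATP5G2 and ATP5G3. ATP5G3 had 65.7 FPKM in parental cells and 40.9 in the clone (-0.67), ATP5G2 had 78.8 and 72.3 and ATP5G1 20.1 and 16.6. The 3 genes summed to 165 and 129.8 FPKM, and ATP5G3 made up 39.9% of the sum in parental cells and 31.5% in the clone. All 3 were below 0, and ATP5G1 and ATP5G2 have annotated pseudogenes.

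None of the 4 subunits of the peripheral stalk (median log2 fold -0.17) or the 3 other membrane subunits (-0.23) reached 1.5-fold. OSCP, the stalk protein made by ATP5O, had 82.9 FPKM in parental cells and 62.6 in the clone (-0.40), and ATP5H had 93.3 and 98.5. ATP5F1 had 56.5 and 52.0 FPKM and ATP5J 50.9 and 43.5, both stalk subunits. Of the membrane subunits, ATP5L had 16.0 and 20.7 FPKM (0.35), ATP5I 15.9 and 10.9 (-0.50) and ATP5J2 36.0 and 30.5 (-0.23). ATP5S, an accessory factor, was low, at 1.83 and 2.49 FPKM.

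By level, the members kept nearly the same order in the libraries. Across the 97 genes, Spearman's rho of their FPKM was 0.95 and Pearson's r of log2(FPKM + 1) was 0.94, as a description over genes that share 2 libraries. The members ranged from 0.427 to 245 FPKM in the parental and from 2.28 to 238 in the resistant library. Subunits of a single complex spanned a wide range, from 1.67 to 80.4 FPKM for complex I in the parental library. Above the median of all genes passing the filter, 8.42 and 8.79 FPKM, lay 79 members in parental cells and 77 in the clone.

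**Figure D3:**
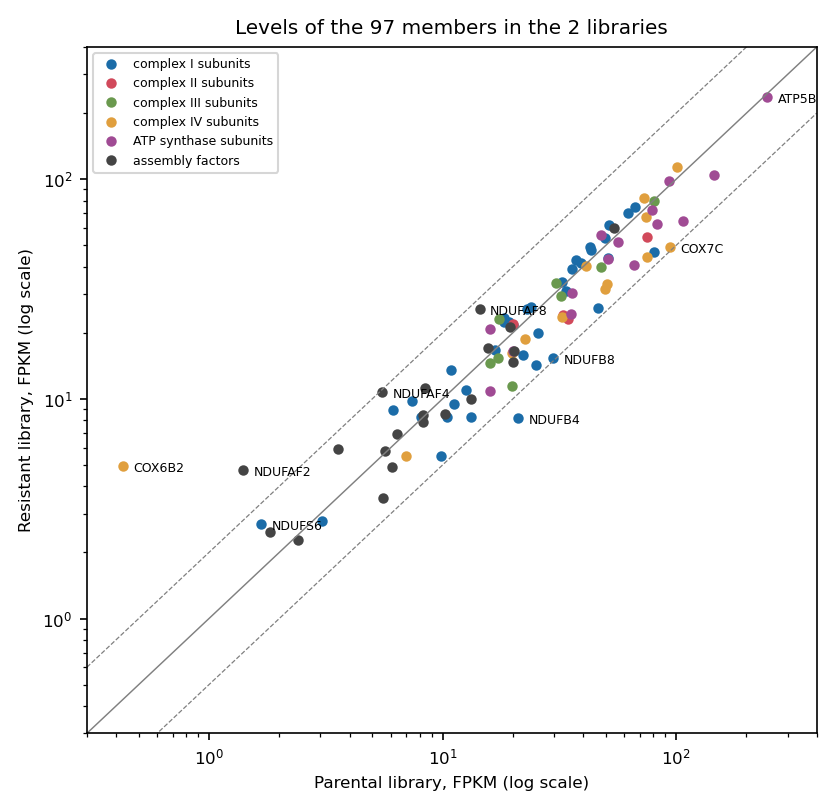
Each point is 1 of the 97 members, with its FPKM in the parental library on the horizontal and in the resistant library on the vertical axis, both on log scales and coloured by complex. The solid line is equality and the dashed lines are 2-fold. Most points lie between the dashed lines, with COX6B2 (0.427 and 4.97 FPKM) and NDUFAF2 (1.40 and 4.77) above them and NDUFB4 (21.1 and 8.21) below.

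The GC content of transcripts was set beside the folds of the subunits. It was the median over the annotated protein-coding transcripts of a gene, or over all its transcripts where it has no coding one. With all genes cut into 3 equal classes of GC content, of the 23 subunits in the lowest class 17 were below 0 and 8 were at least 1.5-fold lower, with a median log2 fold of -0.25. The middle class was much like it, with 24 of 33 below 0, 4 at least 1.5-fold lower and a median of -0.23. Of the 21 in the highest class 6 were below 0, with a median of 0.14, and 2 of these, NDUFB8 and COX6B1, were at least 1.5-fold lower. Among all genes passing the filter the medians of the classes were 0.04, 0.03 and 0.06. Pearson's r of GC content with the log2 fold was 0.40 across the 77 subunits and the same without COX6B2, beside 0.04 across 13886 genes, where genes are not independent replicates. The GC-rich subunits NDUFS7 (66.8% GC), NDUFB7 (65.0%) and NDUFS8 (63.5%) were between 0.14 and 0.16, while NDUFB5 (40.1%) and COX7C (41.6%) were past 1.5-fold lower. Other subunits of low GC content were above 0, among them NDUFA12 (44.6%, 0.36), NDUFS4 (42.4%, 0.25) and NDUFS1 (43.9%, 0.06). NDUFA5, with the lowest GC content (34.4%), was at -0.23. Across the 20 assembly factors r was -0.07.

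With each fold set against the median of all genes of like GC content, a setting chosen after the data were seen, the same 14 members were at least 1.5-fold lower, and the median of the subunits was -0.16. Since the medians over all genes differed little by GC content, this setting could move a member only slightly. It cannot address a relation seen among the subunits alone. Transcripts of members are short, with 72 of 97 in the shortest of 3 equal classes of all genes, in which the median log2 fold of all genes was 0.00 and that of the members -0.13. The part of GC content in the spread of the subunits was not tested.

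**Figure D4:**
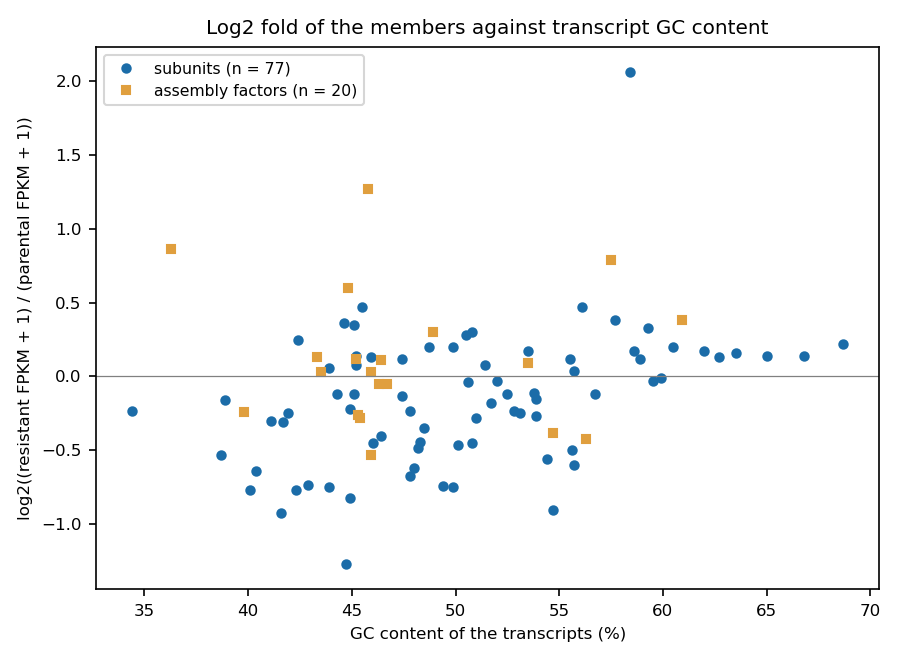
Each point is a member, with the GC content of its transcripts in percent on the horizontal axis and log2((resistant FPKM + 1)/(parental FPKM + 1)) on the vertical axis. Circles are the 77 subunits and squares the 20 assembly factors. Circles above 59% GC lie near or above 0, while those below 45% range from -1.27 for NDUFB4 (44.7% GC) to 0.36 for NDUFA12 (44.6%). NDUFB8 (54.7%) and COX6B1 (55.7%) lie at -0.90 and -0.60.

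Members sit on many chromosomes, and some chromosomes held members of 1 direction. All 4 on chromosome 4 were below 0 (median -0.40), where the other genes of that chromosome had a median of 0.14. On chromosome 3 the median of 5 members was -0.53, beside -0.17 for its other genes. On chromosome 1, 6 of 7 members were below 0 (median -0.13, beside 0.07), and on chromosome 10 the median of 3 members was -0.73, beside 0.00. On chromosome 11, 6 of 7 members were above 0 (median 0.17, beside 0.09), and on chromosome 19, with 12 members, 8 were above 0 (0.14, beside 0.03). Over all chromosomes 56.7% of members and 46.7% of all genes were below 0. These are counts over few genes and no test was made.

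Other genes of the pathway were counted from lists, to be read beside 14.5% of all genes at least 1.5-fold higher and 12.0% lower. The 5 subunits or carriers under other names, searched by 8 symbols that include older and newer names of the same gene, were all listed. Of the 5, 1 was at least 1.5-fold higher, cytochrome c (CYCS), with 17.4 FPKM in parental cells and 28.1 in the clone. The complex III subunit CYC1 had 23.5 and 30.7 FPKM. Of 34 assembly factors under other names none was at least 1.5-fold higher with the added 1 and 1 was lower, CMC1, with 4.44 and 2.39 FPKM. The median of these 34 was 0.11, with TACO1, a translational activator of the mitochondrial COX1 mRNA, the highest at 10.7 and 15.7 FPKM (0.51). NUBPL, an assembly factor of complex I in this list, had 3.91 and 5.95 FPKM, a log2 fold of 0.50 and a plain ratio of 1.52. Other complex I factors in the list went both ways. FOXRED1 (-0.37), ACAD9 (-0.24), TIMMDC1 (-0.04) and ECSIT (-0.04) were below 0, and TMEM126B (0.10) and TMEM126A (0.26) were above it.

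The 13 mitochondrially encoded subunits had a median log2 fold of 0.19, beside -0.12 for the nuclear subunits. Of the 13, 9 were above 0 (69.2%, beside 53.3% of all genes). Their summed FPKM was 4785 in parental cells and 4588 in the clone, a ratio of 0.959, beside 0.883 for the nuclear subunits. Among the 13, 2 were at least 1.5-fold higher, MT-ND3 (17.5 FPKM parental, 32.7 resistant) and MT-ND4L (77.7 and 129), and none was lower. Over all genes 14.5% were higher and 12.0% lower at that bar. MT-CO1, the catalytic subunit of complex IV, was the most abundant, at 2119 and 1654 FPKM (-0.36), and MT-ND6 was the lowest by fold, at 141 and 97.7 (-0.53). MT-ND4L shares a merged locus in the table with MT-ND4 (299 and 387 FPKM), so reads may be divided between them.

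Among 14 regulators of mitochondrial gene expression 12 were above 0 (85.7%, beside 53.3% of all genes), with a median of 0.29. Of the 14, 1 was at least 1.5-fold higher. That was POLRMT, the mitochondrial RNA polymerase, with 14.9 FPKM in parental cells and 23.2 in the clone (0.61). The mitochondrial transcription factor TFAM had 10.8 and 14.6 FPKM, NRF1 had 4.89 and 6.65 and ESRRA 4.58 and 7.10, all under 1.5-fold with the added 1. PPARGC1A, the coactivator of mitochondrial biogenesis, was at least 1.5-fold lower, at 1.64 and 0.499 FPKM (-0.82).

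In the tricarboxylic acid cycle 1 of 14 genes was past 1.5-fold, the mitochondrial isocitrate dehydrogenase IDH2, with 23.7 FPKM in parental cells and 6.99 in the clone (-1.63). Citrate synthase (CS), often read as a measure of mitochondrial content, had 58.4 and 62.3 FPKM, and fumarate hydratase (FH) was the highest by fold, at 71.2 and 99.8 (0.48). Of 8 import and porin genes 2 were at least 1.5-fold higher, the channel of the outer membrane TOMM40 (14.5 and 25.1 FPKM) and TIMM44 (26.1 and 39.9). At least 1.5-fold lower was 1, VDAC3 (144 and 71.6), where 14.5% of all genes were higher and 12.0% lower. VDAC1 and VDAC2 had 109 and 127 and 121 and 154 FPKM, in the opposite direction to VDAC3.

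**Figure D5:**
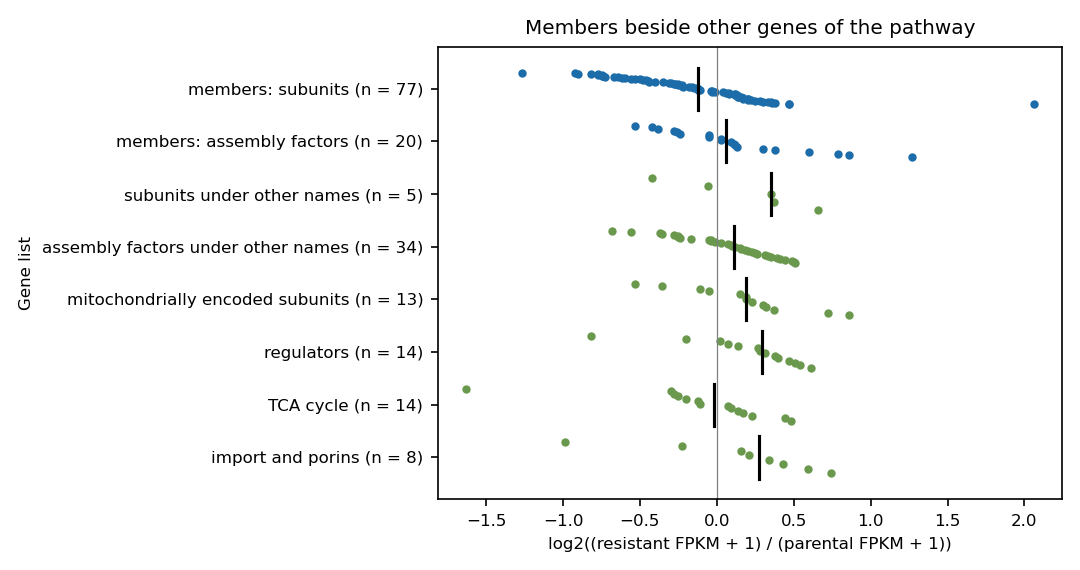
Each row is a gene list and each point a gene, with log2((resistant FPKM + 1)/(parental FPKM + 1)) on the horizontal axis and black bars at the medians. The nuclear subunits have a median of -0.12 and the 13 mitochondrially encoded subunits 0.19, and the single point at -1.63 in the tricarboxylic acid cycle list is IDH2.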

How the data were processed

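RNA of 2 cultures was sequenced with a stranded mRNA kit, per the labels' protocols. The deposited table gives FPKM for each library, per the file headers, with the aligner, annotation and build not given in the sources used here. It also holds the authors' log2 ratio and p-values and q-values, per the file headers, of a test that is not stated. The authors' log2 ratio equalled that of the FPKM within 0.001 in all 15310 genes above 0 in both libraries. Every listed gene had at least 0.544 FPKM in 1 library, so the table appears filtered. Depth was sought as steps in the FPKM of single-exon genes. At the best of many trial steps 26.6% and 27.7% lay within 0.1 of a whole multiple. Without steps 20% would at 1 fixed step, and more at the best of many, so no counts were recovered.

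Folds used a pseudocount of 1, after a filter of at least 1 FPKM in 1 of the libraries. No p-value was computed, because each group had 1 library. GENCODE release 29 held 15531 identifiers, all 97 members among them, and the locus in the table contained the GENCODE gene in 96.8%. Of the members 43 share a merged locus with another listed gene and 32 share exon bases with one, and whether strand was used in counting is not given. Members and lists were chosen with earlier results of these data known. Named genes were those at least 1.5-fold apart, those at the ends of each group by fold, the most abundant, the isoform pairs and the ends of each list, and other members were added for completeness. The fold and naming rules were tested on simulated data (Python 3.11.15, pandas 2.3.3, SciPy 1.17.1). A subunit of complex I is counted in the totals and is not reported by itself here.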

Additional observations from a re-analysis of the deposited data

How the results depend on the processing

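Alternatives were other pseudocounts, filters and scalings and leaving out shared loci or readthrough genes (no member is one), and, added after the data were seen, centring within 10 classes of GC content or transcript length. With a filter of 5 FPKM, members at least 2-fold higher went from 2 to 0 and at least 1.5-fold higher from 5 to 3, because COX6B2 and NDUFAF2 were then not tested. Without shared loci 54 members were left, and those at least 1.5-fold lower went from 14 to 9. The median log2 fold of assembly factors turned from 0.06 to -0.01 under either scaling. The 14 members at least 1.5-fold lower were all kept under the other settings except length centring, which kept 12. NDUFAF6 fell under 1.5-fold with either scaling and either centring, COX6B1 and NDUFB1 with length centring. With either scaling 17 members were at least 1.5-fold lower, the 3 added being ATP5E, COX17 (-0.59) and SDHA (-0.64). SDHA passed it with length centring too (-0.61). With a pseudocount of 0.1 or none COX17 passed it (-0.63 and -0.65), and NDUFS6 was at least 1.5-fold higher (0.66 and 0.69). The NDUFB4 fold stayed past 2-fold in all settings. Depth is unknown, so no counting error can be given, and the lowest members (COX6B2, NDUFAF2, NDUFS6, ATP5S) are the least certain. No paired analysis was possible because each group has 1 library.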

Other observations

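Genes outside the naming rule but close to it were listed as well. The pseudogene COX7BP1 was listed at 0 FPKM in parental cells and 0.996 in the clone, UQCRBP2 at 0.776 and 0, UQCRFS1P1 at 1.90 and 1.11 and NDUFA9P1 at 0.854 and 0.648. The antisense gene COX10-AS1 had 15.3 and 12.4 FPKM, above COX10 itself in both libraries.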
